A study of Mus musculus with 25 samples.

Results

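The 10 male mice compared here were kept on the control (CNTL) diet, and 5 of them were wild type (WT) while 5 were GPx4+/-, that is, carried 1 disrupted allele of Gpx4 in every cell. They were chosen by the genotype and treatment stated in the sample labels, and they make up 10 of the 25 mice of the series. The remaining 15 mice received a high fat, high sucrose (HFHS) diet, in 5 WT, 5 GPx4+/- and 5 WT mice that also drank carnosine. The study assigned GPx4+/- and WT littermates of a line maintained on C57BL6/J to the diets, and which mice shared a litter is not given. The CNTL mice entered the diet at 8 to 10 weeks of age and ate a diet with 6% of its energy as fat for 16 weeks, without carnosine. Bulk mRNA of tissue described as left ventricular was sequenced and expressed as TPM, a transcript's share of the library corrected for its length, which keeps no read depth. Nothing in the labels says more on how the mice of a group were drawn, so p-values measure the spread between these mice. The animals were killed after a fast that was followed by dextrose or saline, and the labels do not give which mouse received which, so an effect of that injection cannot be told apart from other differences between mice.

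Gpx4 encodes glutathione peroxidase 4, a selenoenzyme that uses glutathione to reduce lipid hydroperoxides inside membranes. Lipid hydroperoxides otherwise break down to reactive aldehydes, and cells that lose the enzyme can die by ferroptosis, an iron-dependent form of cell death driven by lipid peroxidation. The heart is rich in mitochondria, whose membranes hold polyunsaturated phospholipids. The comparison asks which myocardial mRNAs differ when 1 allele of Gpx4 is missing and the HFHS diet is not given.

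A transcript sequence matters for this comparison because 2 of the genes that differed are processed pseudogenes of 2 other genes that differed. The pseudogene Gm9855 is a copy of the coding region of Tdg, which encodes thymine DNA glycosylase, and Gpx4-ps2 is a copy of Gpx4. Over all 1194 bases of its only transcript, Gm9855 differed from the main transcript of Tdg at 9 positions and was 99.2% identical, and 83.4% of its windows of 31 bases also occurred in a Tdg transcript. Gpx4-ps2-202 differed from Gpx4-202 at 2 of 762 aligned positions, was 99.7% identical, and shared 89.1% of its windows of 31 bases with Gpx4 transcripts. The following 30-base windows, from the GENCODE transcripts of GRCm38, show where the copies can be told apart, with the differing bases in capitals.
Tdg, main transcript, positions 1237 to 1266: gagaagcgGcccccAgcgatgttccGaatg
Gm9855, its only transcript, positions 1076 to 1105: gagaagcgAcccccGgcgatgttccAaatg
Gpx4-202, transcript positions 340 to 369: gtcaccaaCgtggcctcgcaatgaggcaaa
Gpx4-ps2-202, transcript positions 143 to 172: gtcaccaaTgtggcctcgcaatgaggcaaa
Counted from the first base of each window, the Tdg pair differed by G9A, A15G and G26A and the Gpx4 pair by C9T. The windows of 30 bases that start 9 bases further on, shown next with the TGA that is read as selenocysteine at the active site of GPx4 in capitals, were the same in both Gpx4 copies.
Gpx4-202, transcript positions 349 to 378: gtggcctcgcaaTGAggcaaaactgacgta
Reads from such stretches fit both members of a pair, so the split of TPM between a gene and its copy is an estimate and is uncertain for each value of Tdg, Gm9855 and Gpx4-ps2 given here.

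The cell makeup of the samples was checked with markers, and in bulk tissue fewer cells of a type and less RNA per cell cannot be told apart. All 10 ventricular cardiomyocyte markers were present, with sums of 49072 to 56935 in TPM scaled between libraries (scaled TPM) in WT and 47497 to 56701 in GPx4+/- mice. The 10 atrial markers summed to 167.7 to 195.9 in 4 WT mice and 4791 in WT mouse 3, and to 182.4 to 297.5 in 3 GPx4+/- mice, 1566 in GPx4+/- mouse 2 and 7622 in GPx4+/- mouse 1. The 14 hepatocyte markers summed to 17.3 to 50 in WT mice and to 20.9 to 54.7 in 4 GPx4+/- mice, but to 1667 in GPx4+/- mouse 2. The 10 lymphocyte markers did not exceed a sum of 3.27. Endothelial markers (902.5 to 1279 in WT, 972.3 to 1166 in GPx4+/-), fibroblast markers (333.9 to 665.4 and 364.9 to 546.3) and macrophage markers (165.9 to 261.6 and 210.5 to 293.5) overlapped between the groups, although all 9 tested macrophage markers had a log2 fold change above 0 (median 0.131). The 5 tested erythroid markers were all above 0 as well (median 0.372, sums of 2272 to 4754 and 3722 to 5376), and the 7 tested markers of valve and cartilage were all below 0 (median -0.561, sums of 16.6 to 152.0 and 20.5 to 59.2). Leaving out 1 mouse moved these medians to between 0.05 (without GPx4+/- mouse 1) and 0.221 (without WT mouse 3) for macrophage, between 0.219 (without WT mouse 3) and 0.494 (without WT mouse 4) for erythroid and between -0.866 (without WT mouse 5) and -0.244 (without WT mouse 3) for valve and cartilage markers.

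Those mice stood apart in the whole profile as well. On the first principal component of the 10 mice, which carried 29.7% of the variance and was led by the atrial genes Myl7, Sln and Myl4, WT mouse 3 and GPx4+/- mice 1 and 2 lay between 23.02 and 25.40 and the other 7 mice between -15.11 and -4.46. GPx4+/- mouse 2 led the second component (19.8%, liver genes) and GPx4+/- mouse 3 the third (13.7%).

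Gpx4 (chr10:80047166-80056439, GRCm38, plus strand) was examined first among the genes, because it checks the genotype labels. After the TPM of its 7 transcripts were summed and scaled between libraries, it stood at 693.7, 707.8, 590.0, 691.7 and 665.1 in WT mice 1 to 5. In GPx4+/- mice 1 to 5 it stood at 273.5, 316.8, 250.3, 356.5 and 330.8. The highest GPx4+/- mouse was therefore below the lowest WT mouse, and each of the 10 mice fitted its label. The means were 669.7 ± 47.1 (SD, n = 5) and 305.6 ± 43.1 (SD, n = 5), so that GPx4+/- hearts held 45.6% of the WT level. The log2 fold change was -1.14 with a standard error of 0.0869 and an adjusted p of 2.77e-07 (limma, Benjamini-Hochberg), and the two-sided exact permutation p was 0.00794, the smallest that 5 against 5 mice can give.

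Most Gpx4 mRNA came from 2 coding transcripts. Gpx4-202, which made up the bulk of the gene, fell from 544.5 ± 40 to 255.6 ± 49.8 scaled TPM, or 46.9% of WT (adjusted p = 2.69e-05 with transcripts tested singly in limma). Gpx4-207 went from 119.2 ± 36.8 to 46.2 ± 16.7 scaled TPM, or 38.8% of WT, and its ranges of 70.7 to 156.2 in WT and 26.2 to 71.3 in GPx4+/- mice just overlapped (adjusted p = 0.305). Gpx4-205, a processed transcript without an annotated coding region, went the other way at a trace level, from 0.169 ± 0.249 to 0.635 ± 0.176 scaled TPM. The pseudogene Gpx4-ps2 (chr10:45875291-45876086, plus strand) was lower together with its parent. It stood at 2.64, 3.17, 1.81, 1.6 and 1.71 scaled TPM in WT mice and at 0.37, 0.893, 0.623, 0.745 and 0.73 in GPx4+/- mice, without overlap. It passed the expression minimum of 1 scaled TPM, a mean over 25 mice, through the WT mice, where it is high, so its difference was favoured by that minimum. Its log2 fold change was -1.18 ± 0.198 (SE) with an adjusted p of 0.0187, and it no longer passed in 9 of the 20 alternative fits that tested it, among them those without WT mouse 1 or 2 or GPx4+/- mouse 1 or 3 (highest adjusted p over the alternatives, 0.449). The sum of Gpx4 and Gpx4-ps2 was 671.8 ± 47.5 in WT and 306.3 ± 43.3 in GPx4+/- mice, a log2 difference of -1.14, the same as for Gpx4 alone. Gpx4-ps2 was too small a part of this sum to change it.

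Across the transcriptome, 6 of 11983 genes tested (0.0501%) differed between GPx4+/- and WT hearts on CNTL at an adjusted p under 0.05. These were Gpx4, Gpx4-ps2, Tdg and 1190007I07Rik, all lower, and Gm9855 and Hprt, both higher. At an unadjusted p under 0.05, 356 genes (2.97%) were higher and 398 genes (3.32%) were lower, so that 47.2% of them were higher. With TPM as deposited, without scaling between libraries, 374 were higher and 95 lower (79.7% higher), and the median log2 fold change of all genes moved from 0.000 to 0.034, with 7759 genes above 0 and 4224 below. Among genes with a mean of at least 5 scaled TPM 181 were higher and 319 lower (36.2% higher). The 2 groups did not overlap in 50 genes that were higher (0.417%) and 61 genes that were lower (0.509%). Of all genes tested, 6021 had a log2 fold change above 0 and 5962 below 0, and the median absolute change was 0.068.

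**Figure D1:**
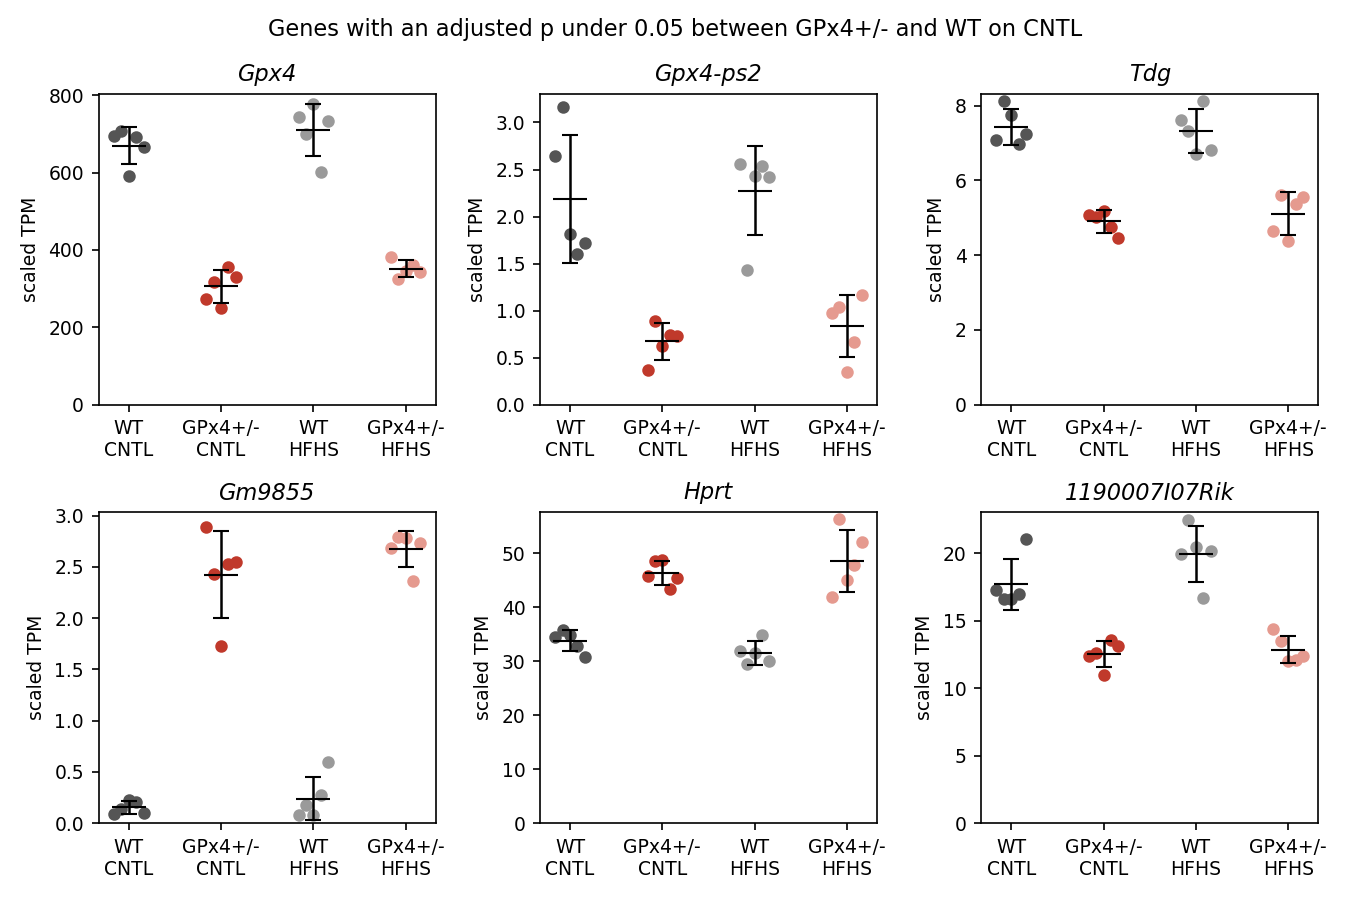
Scaled TPM (vertical axes, from 0) of the 6 genes with an adjusted p under 0.05 on CNTL, with 1 point per mouse and the mean and SD as bars, in WT and GPx4+/- mice on CNTL and on HFHS. Within CNTL the 5 GPx4+/- mice lie apart from the 5 WT mice for each of the 6 genes, and the HFHS mice show differences in the same directions.

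The TPM assigned to Tdg was lower and that assigned to its pseudogene higher. Thymine DNA glycosylase removes thymine from G:T mismatches and also excises the oxidised forms of 5-methylcytosine during active DNA demethylation. Tdg (chr10:82629828-82650799, plus strand) stood at 7.09, 8.13, 7.75, 6.99 and 7.24 scaled TPM in WT mice and at 5.09, 5.03, 5.19, 4.76 and 4.45 in GPx4+/- mice. The groups did not overlap, the GPx4+/- mean was 65.9% of WT, and the log2 fold change was -0.56 ± 0.0721 (SE) with an adjusted p of 0.00108 in limma. The main transcript stood at 4.52 ± 0.326 in WT and 2.69 ± 0.665 scaled TPM in GPx4+/- mice, without overlap (adjusted p = 0.0655 with transcripts tested singly).

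Gm9855 (chr10:42054113-42055306, minus strand) passed the expression minimum of 1 scaled TPM, a mean over 25 mice, through the GPx4+/- mice alone, so it was a gene that had to differ. It was close to absent in WT mice on CNTL, at 0.0921, 0.14, 0.23, 0.207 and 0.0969 scaled TPM. In GPx4+/- mice it stood at 2.89, 2.43, 1.73, 2.52 and 2.55, so that every GPx4+/- mouse was far above every WT mouse. Its log2 fold change on the scale of log2(scaled TPM + 0.5), which understates changes of low genes, was 2.15 ± 0.155 (SE) with an adjusted p of 1.98e-07 in limma. The pseudogene held 2.01% ± 0.807 (SD, n = 5) of the TPM of the pair in WT mice and 33% ± 4.72 (SD, n = 5) in GPx4+/- mice. The sum of Tdg and Gm9855 was 7.59 ± 0.5 in WT and 7.33 ± 0.424 in GPx4+/- mice, which differed by less than the spread between mice (log2 difference -0.05, two-sided exact permutation p = 0.349). Because Gm9855 is much shorter than the main Tdg transcript (1194 against 2959 bases), the pair was also summed as scaled TPM multiplied by annotated transcript length, which follows the share of reads given to it. On that scale GPx4+/- mice held 82.9% of the WT level (two-sided exact permutation p = 0.00794). Whether reads of 1 member of the pair were assigned to the other was not tested.

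**Figure D2:**
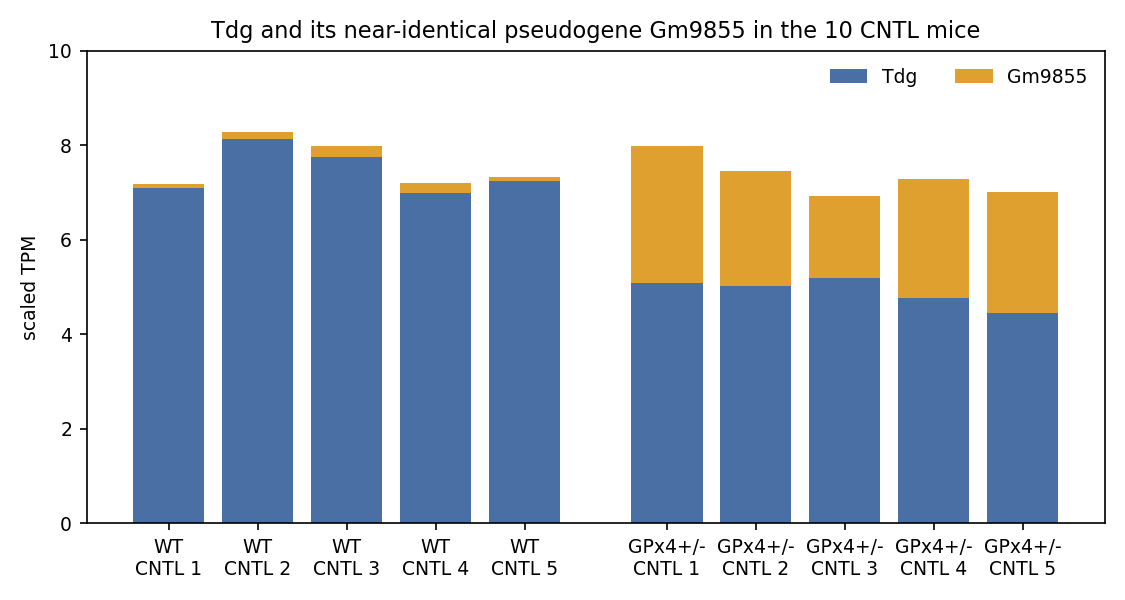
Scaled TPM (vertical axis, from 0) of Tdg (blue) and its pseudogene Gm9855 (orange), stacked for each of the 5 WT and 5 GPx4+/- mice on CNTL. Gm9855 is a thin band in the WT mice and reaches 1.73 to 2.89 in the GPx4+/- mice, while the height of the whole bar is similar in both groups.

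The gene next to Tdg, 1190007I07Rik (chr10:82619851-82623228, minus strand), was lower as well. It is the mouse counterpart of brawnin, a small mitochondrial protein needed for the assembly of respiratory complex III. WT mice had 17.3, 16.6, 16.6, 17 and 21 scaled TPM and GPx4+/- mice had 12.4, 12.6, 11, 13.6 and 13.1, without overlap. The log2 fold change was -0.48 ± 0.0804 (SE) with an adjusted p of 0.0187 in limma, and the call was lost in 10 of 21 alternative fits, including those without WT mouse 1 or 5 or GPx4+/- mouse 1, 2 or 3 (highest adjusted p, 0.271). Its coding transcripts of 716 and 586 bases stood at 52% and 52.6% of WT, whereas that of 406 bases, at 5.87 ± 1.3 in WT and 5.5 ± 0.824 scaled TPM in GPx4+/- mice, stood at 93.7%.

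Hprt was the 1 called gene that lies outside chromosome 10. It encodes hypoxanthine-guanine phosphoribosyltransferase, which salvages hypoxanthine and guanine into purine nucleotides, and it is often used as a reference gene for qPCR. Hprt (chrX:52988137-53021659, plus strand) stood at 34.5, 35.8, 34.9, 32.7 and 30.8 scaled TPM in WT mice and at 45.8, 48.6, 48.6, 43.4 and 45.5 in GPx4+/- mice. The lowest GPx4+/- mouse was above the highest WT mouse, and the means were 33.8 ± 1.98 and 46.4 ± 2.24 (SD, n = 5 each). The log2 fold change was 0.45 ± 0.0691 (SE) with an adjusted p of 0.00781 in limma, and it ranged from 0.42 to 0.49 over the 21 alternative fits. It was not called in 3 of them (highest adjusted p, 0.161), among them the fit without WT mouse 3 and GPx4+/- mice 1 and 2. Among 22 tested genes of purine synthesis and salvage, Hprt was higher, Adk (adenosine kinase, which makes AMP from adenosine) was lower at 104.6 ± 7.2 against 94.8 ± 7.7 scaled TPM (adjusted p = 0.793), and 20 did not pass an unadjusted p of 0.05, beside 2.97% higher and 3.32% lower and 0.0501% called over all genes. This list was chosen with an earlier call of Hprt in these data known, so counting Hprt in it is no separate result.

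The position of these genes was examined next, since 5 of the 6 lie on chromosome 10 with Gpx4. Chromosome 10 held 578 of the 11983 genes tested. Tdg and 1190007I07Rik lie 2.57 and 2.56 Mb from Gpx4, Gpx4-ps2 lies 34.2 Mb away and Gm9855 38 Mb away. Among 169 genes tested within 5 Mb of Gpx4, 2 were called, beside 0.0501% of all genes, and at an unadjusted p under 0.05 there were 5 higher and 10 lower genes, beside 2.97% and 3.32% of all genes. The median log2 fold change of the 169 genes was -0.009 and their median absolute change 0.069, against 0.068 for all genes. The other 408 genes of the chromosome held 2 called genes, and 8 were higher and 13 lower at an unadjusted p under 0.05. The 2 called were Gm9855 and Gpx4-ps2, the near-identical copies of Tdg and Gpx4. Their values rest on an uncertain split of TPM with those genes. Each also passed the expression minimum through the genotype where it is high, so they cannot be taken as separate calls.

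Gm4924, a predicted gene of unstated function 2.3 Mb from Gpx4, just missed the threshold. It passed the expression minimum of 1 scaled TPM, a mean over 25 mice, through the GPx4+/- mice, since the WT groups on CNTL and HFHS averaged 0.611 and 0.475, so it was a gene that had to differ. It stood at 0.418, 0.823, 0.742, 0.457 and 0.614 scaled TPM in WT mice and at 1.23, 2.04, 1.53, 1.7 and 2.86 in GPx4+/- mice, without overlap (log2 fold change 1.07 ± 0.202, adjusted p = 0.0663 in limma). It passed in 4 of 20 alternative fits, where its adjusted p lay between 0.0326 and 0.389. Other genes of the 5 Mb window with an unadjusted p under 0.05 include Gstt2 (a glutathione S-transferase, log2 fold change 0.39), Pfkl (the liver form of phosphofructokinase, -0.16) and, named after the values were seen, Slc19a1 (a folate carrier, -0.30) and Appl2 (an endosomal adaptor of adiponectin signalling, 0.29).

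**Figure D3:**
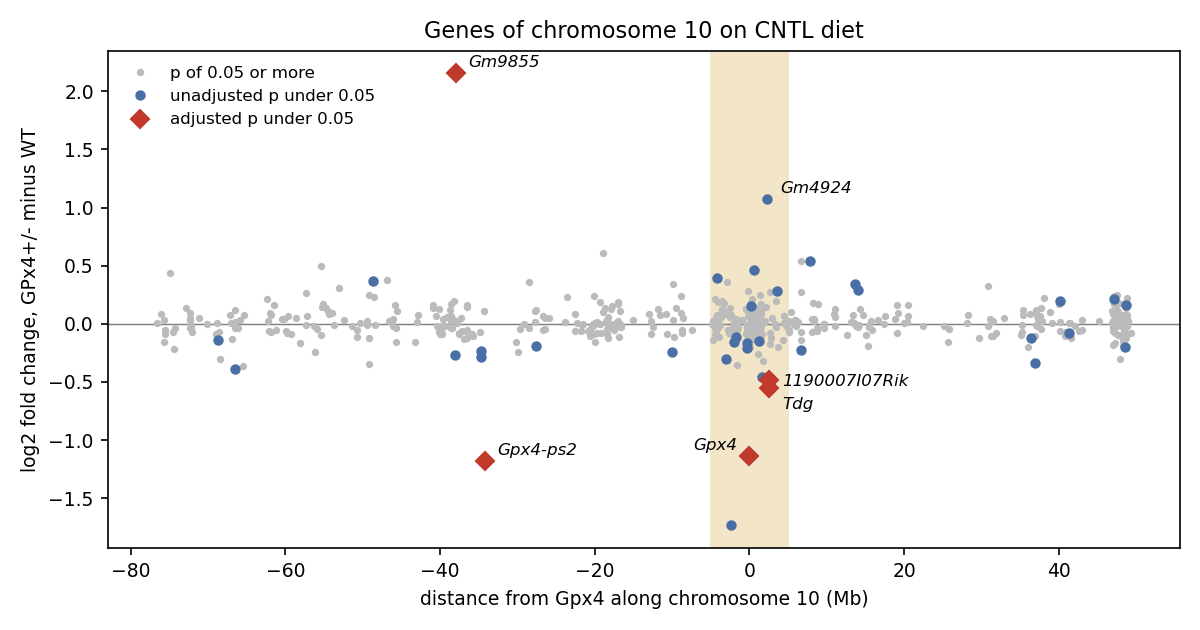
Log2 fold change between GPx4+/- and WT mice on CNTL (vertical axis) for the 578 tested genes of chromosome 10 by distance from Gpx4 in Mb (horizontal axis), with the 5 Mb to either side shaded. The called genes (red diamonds) are Gpx4, Tdg and 1190007I07Rik inside the shaded window and Gm9855 and Gpx4-ps2 outside it, and most other genes lie close to 0.

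The other enzymes that handle peroxides showed no called gene, beside 0.0501% called over all genes. Of the 7 other glutathione peroxidases, 4 were expressed highly enough to be tested. Gpx1, the cytosolic enzyme that removes hydrogen peroxide, stood at 67.9, 61, 71, 67.7 and 55.9 scaled TPM in WT and at 78.3, 99.7, 48, 71.1 and 63.9 in GPx4+/- mice, with overlapping groups and a log2 fold change of 0.12 (adjusted p = 0.918). Without GPx4+/- mouse 2 the change of Gpx1 was -0.0036, so that its direction rests on that mouse. Gpx3, the secreted plasma form, stood at 435.8 in WT mouse 3 and 519.6 in GPx4+/- mouse 1 and between 97.9 and 180.9 in the others. Gpx7 and Gpx8, which act in the endoplasmic reticulum, had log2 fold changes of 0.04 and -0.07, and Gpx2, Gpx5 and Gpx6 were at or below 0.0316 in every CNTL mouse. Among 16 tested selenoproteins other than the glutathione peroxidases and 9 genes of the selenocysteine insertion machinery, 0 passed an unadjusted p of 0.05. Over all genes 2.97% were higher and 3.32% lower, so few would be looked for in lists of this size. The log2 fold changes of these genes lay between -0.15 and 0.19. Selenot, a thioredoxin-like selenoprotein of the endoplasmic reticulum, was lower with non-overlapping groups, as were 0.509% of all genes. It stood at 40.9, 41.5, 40.9, 40.6 and 43 in WT and 37.6, 38.8, 39.4, 37.4 and 40.3 in GPx4+/- mice (log2 fold change -0.10, adjusted p = 0.826). Selenop, the selenium carrier of plasma, had a log2 fold change of 0.19 (adjusted p = 0.826).

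Few genes that regulate ferroptosis and iron passed. Of 20 tested ferroptosis regulators, 1 was lower at an unadjusted p under 0.05 and 0 were higher, close to the 3.32% and 2.97% of all genes. This was Acsl3, an acyl-CoA synthetase that activates monounsaturated fatty acids, at 4.01, 2.38, 4, 3.09 and 2.85 scaled TPM in WT and 2.19, 2.27, 2.85, 2.22 and 1.7 in GPx4+/- mice (log2 fold change -0.45, adjusted p = 0.702). The groups overlapped. Slc7a11, the cystine importer, was below the expression minimum, with a highest value of 0.189 in any CNTL mouse, and Ptgs2, a common marker of ferroptosis, did not exceed 0.491. Of 20 tested genes of iron handling, 1 was lower, namely Slc11a2 (the iron importer DMT1), at 11.2 ± 0.656 against 10 ± 0.895 scaled TPM (adjusted p = 0.764). Hamp, or hepcidin, the hormone that limits iron export, had the widest log2 fold change, 1.82, with values of 84.9 and 34.5 in GPx4+/- mice 1 and 2, 38.7 in WT mouse 3 and at most 1.23 in the others (adjusted p = 0.87). The medians of these 2 lists were -0.024 and -0.055, against 0.000 for all genes.

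Of 18 tested Nrf2 targets and glutathione synthesis genes, 2 were lower and 0 were higher at an unadjusted p under 0.05, beside 3.32% and 2.97% of all genes. Nqo1, a quinone reductase, stood at 43.1, 42.9, 51.5, 41.2 and 42 scaled TPM in WT and at 28.8, 36.1, 30.5, 40.6 and 36.7 in GPx4+/- mice. The groups did not overlap, though WT mouse 4 and GPx4+/- mouse 4 lay side by side, and the log2 fold change was -0.36 ± 0.0949 (adjusted p = 0.587 in limma). Srxn1, or sulfiredoxin, which reactivates oxidised peroxiredoxins, had 12.6 ± 1.45 and 10.8 ± 1.32 scaled TPM (adjusted p = 0.729), with overlapping groups. In the list of 19 peroxiredoxins and thioredoxins, Srxn1 was the gene that passed, and among 10 superoxide and hydrogen peroxide enzymes 0 did.

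Glutathione S-transferases conjugate glutathione to reactive aldehydes and other electrophiles. Of 20 tested, 16 had a log2 fold change above 0, beside 6021 of 11983 genes, and 2 of them had an unadjusted p under 0.05, beside 2.97% of all genes. The median was 0.06, and it was 0.037 without WT mouse 2 and 0.113 without GPx4+/- mouse 5. The number above 0 was 17 under TPM as deposited, where 7759 of 11983 genes were above 0, 17 under quantile normalization and 13 without WT mouse 3 and GPx4+/- mice 1 and 2. Gstt2 stood at 16.1, 11.6, 11.5, 10.9 and 14 scaled TPM in WT and at 15.7, 16.2, 16.4, 21.3 and 14.9 in GPx4+/- mice (adjusted p = 0.729). The groups overlapped by WT mouse 1. Gstz1, which takes part in tyrosine breakdown, stood at 26.4 ± 1.95 and 30.1 ± 3.53 (adjusted p = 0.729). Of 19 aldehyde-clearing enzymes 1 passed an unadjusted p of 0.05, the retinal dehydrogenase Aldh1a2, which was low in both groups at 0.797 ± 0.277 and 1.32 ± 0.512 scaled TPM (adjusted p = 0.793). On the HFHS diet the median of the glutathione S-transferases was -0.056.

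Tdg stood among 15 tested genes of base excision repair and DNA demethylation, of which it was lower and 2 were higher at an unadjusted p under 0.05, beside 3.32% and 2.97% of all genes. This list was chosen with an earlier call of Tdg in these data known, so counting Tdg in it is no separate result. The level of Tdg itself rests on the uncertain split with Gm9855. Mutyh, the glycosylase that removes adenine mispaired with oxidised guanine, stood at 0.957, 1.07, 0.921, 0.732 and 0.99 scaled TPM in WT and at 1.33, 1.4, 1.63, 1.51 and 1.39 in GPx4+/- mice, without overlap (log2 fold change 0.45 ± 0.111, adjusted p = 0.535). Nthl1, the glycosylase for oxidised pyrimidines, stood at 2.14, 1.91, 2.66, 2.33 and 2.19 in WT and at 2.71, 2.91, 2.83, 3.26 and 3.29 in GPx4+/- mice (log2 fold change 0.35 ± 0.125, adjusted p = 0.729). Both were low in the heart and neither was called over all genes, and Mutyh passed the expression minimum through the GPx4+/- mice on CNTL, where it is high.

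Muscle genes included lower members in several lists, none of them called. Of 24 tested sarcomere and Z-disc genes, 4 were lower and 0 higher at an unadjusted p under 0.05 (Myot, Ldb3, Csrp3 and Actn2), beside 3.32% lower and 2.97% higher over all genes. A log2 fold change below 0 was found in 19 of them, beside 5962 of 11983 genes. Under TPM as deposited 16 were below 0, beside 4224 of 11983 genes, and under quantile normalization 17, beside 6183. Myot, or myotilin, a Z-disc protein, stood at 59.1, 53.2, 69.4, 54.2 and 41.4 scaled TPM in WT and at 18.9, 44.6, 7.25, 36.8 and 36.5 in GPx4+/- mice, with GPx4+/- mice 1 and 3 far below the others (log2 fold change -1.16 ± 0.357, adjusted p = 0.702). Ldb3, or cypher, stood at 696.8, 689.5, 656.0, 700.9 and 713.7 in WT and at 588.5, 597.3, 569.4, 678.7 and 652.7 in GPx4+/- mice (log2 fold change -0.17, adjusted p = 0.702). The groups overlapped through GPx4+/- mouse 2 for Myot and GPx4+/- mouse 4 for Ldb3. Averaged over the list, the log2 level relative to the WT mean lay between -0.06 and 0.02 in WT mice and was -0.22, -0.12, -0.28, 0.01 and -0.01 in GPx4+/- mice 1 to 5, so mice 4 and 5 did not share the lower level. The same mean over the 10 ventricular cardiomyocyte markers was -0.19, -0.14, -0.12, 0.08 and 0.04 in GPx4+/- mice 1 to 5 and -0.14 in WT mouse 3, and its part in the sarcomere values was not tested.

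Of 19 tested calcium cycling genes, 4 were lower and 0 higher at an unadjusted p under 0.05, again beside 3.32% and 2.97% of all genes. Casq2, the calcium buffer of the sarcoplasmic reticulum, stood at 481.9, 459.8, 407.1, 448.1 and 447.9 scaled TPM in WT and at 382.3, 403.6, 330.2, 424.6 and 455.2 in GPx4+/- mice. The groups overlapped, and the adjusted p was 0.729 for Casq2 and for Asph, which encodes junctin and was at 95.6 ± 6.1 and 83 ± 8.72. Jph2, which anchors the junction of membrane and reticulum, was at 144.7 ± 13.5 and 125 ± 12.8, and Slc8a1, the sodium-calcium exchanger, was at 93.7 ± 8.58 and 83.2 ± 8.02. The median of the whole list was -0.016, against 0.000 for all genes, and it was -0.069 without GPx4+/- mouse 3 and 0.007 without GPx4+/- mouse 2.

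Of 18 tested heat shock proteins, 2 were lower and 0 higher at an unadjusted p under 0.05, Hspb7 and Hspb6, both small heat shock proteins of muscle, beside 3.32% and 2.97% of all genes. Hspb7 stood at 1249, 1163, 1235, 1162 and 1125 scaled TPM in WT and at 877.9, 1117, 632.6, 1174 and 1101 in GPx4+/- mice, with GPx4+/- mice 1 and 3 low and the other 3 close to the WT mice (log2 fold change -0.31 ± 0.115, adjusted p = 0.729). Hspb6 stood at 755.9, 716.0, 733.1, 705.9 and 715.4 in WT and at 589.9, 682.8, 619.7, 680.3 and 703.1 in GPx4+/- mice, without overlap (log2 fold change -0.15 ± 0.06, adjusted p = 0.75). Cryab, another small heat shock protein of muscle, was at 2178 ± 60.5 and 1990 ± 258.6 (adjusted p = 0.816). Of all 18, 17 had a log2 fold change below 0, beside 5962 of 11983 genes, and the median was -0.081. The count was 17 under TPM as deposited, beside 4224 of 11983 genes, and 16 under quantile normalization, beside 6183. Without WT mouse 3 and GPx4+/- mice 1 and 2 the count was again 17 and the median -0.112.

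Among 36 tested genes of fatty acid oxidation and PPAR alpha targets, 33 had a log2 fold change below 0, beside 5962 of 11983 genes, and 1 of them passed an unadjusted p of 0.05, beside 3.32% of all genes. With TPM as deposited the count below 0 was 26, beside 4224 of 11983 genes, and with quantile normalization 27, beside 6183. Fabp3, the fatty acid binding protein of cardiomyocytes, stood at 4983, 4999, 4505, 4870 and 5201 scaled TPM in WT and at 4294, 4578, 4494, 4422 and 4451 in GPx4+/- mice (log2 fold change -0.14 ± 0.0566, adjusted p = 0.75). The groups overlapped through WT mouse 3. The median of the list was -0.057, and it was -0.11 without GPx4+/- mouse 3 and -0.036 without GPx4+/- mouse 1 or WT mouse 5. The list's mean level by mouse ran from -0.09 to 0.10 in WT and from -0.27 to 0.05 in GPx4+/- mice. GPx4+/- mice 1, 4 and 5 lay below the lowest WT mouse by this mean and mice 2 and 3 did not.

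Of 29 tested glucose uptake and glycolysis genes, 1 was higher and 2 were lower at an unadjusted p under 0.05, beside 2.97% and 3.32% of all genes. Of all 29 tested, 23 were below 0, with a median of -0.032 that became -0.088 without WT mouse 3 and -0.007 without GPx4+/- mouse 1. The number below 0 was 13 with TPM as deposited, where 4224 of all 11983 genes were below 0 and the median of all genes was 0.034. Pfkfb3, which makes the allosteric activator of phosphofructokinase, was higher at 3.86 ± 0.678 against 5.11 ± 0.949 scaled TPM (adjusted p = 0.702), while Pfkl and Pdk1 (a kinase that restrains pyruvate dehydrogenase) were lower at an unadjusted p under 0.05 (adjusted p = 0.78 and 0.793). Of 63 nuclear-encoded respiratory chain subunits, 48 were below 0, but 24 with TPM as deposited and 25 with quantile normalization (all-gene median -0.004), and 0 passed an unadjusted p of 0.05. Their log2 fold changes lay between -0.11 and 0.06. The 13 mRNAs of the mitochondrial genome made up 35.8% to 42.7% of TPM in WT and 34.4% to 43.1% in GPx4+/- mice, and 0 of them passed.

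Lists tied to remodelling and inflammation held few genes that passed. Of 19 collagen chains, 16 had a log2 fold change above 0, beside 6021 of 11983 genes, with a median of 0.118. An unadjusted p of 0.05 was passed by 0 of them, beside 2.97% higher and 3.32% lower over all genes. The median was 0.041 without WT mouse 5, which was the lowest WT mouse, and 0.205 without WT mouse 3 and GPx4+/- mice 1 and 2. The count of collagen chains above 0 was 18 under TPM as deposited, where 7759 of 11983 genes were above 0. Under quantile normalization it was 16, beside 5799 of 11983 genes. The mean level of the collagens ran from -0.28 to 0.22 in WT mice and from -0.01 to 0.25 in GPx4+/- mice, so the GPx4+/- mice lay almost wholly within the WT range. Of 23 genes of the TGF-beta pathway 2 were lower at an unadjusted p under 0.05, beside 3.32% of all genes, the BMP target Id3 and the SMAD repressor Skil (adjusted p = 0.777 and 0.793). Among 10 inflammatory and 24 interferon-stimulated genes 0 passed, and Tnf, Il6 and Il1b did not exceed 0.749 in any CNTL mouse. In 11 fetal and hypertrophy genes, Tnnt1, the slow skeletal troponin T, was higher at 10 ± 1.59 against 12.7 ± 1.92 (adjusted p = 0.729), while GPx4+/- mouse 3 had a list mean of -1.41. The median of this list was -0.261, but 0.002 without GPx4+/- mouse 3, and it lay between -0.33 and 0.002 when 1 mouse was left out.

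The counts of the remaining lists at an unadjusted p under 0.05 stand beside 2.97% higher and 3.32% lower over all genes. The 24 sterol and fatty acid synthesis genes had 2 lower members, Hmgcs1 and Mvd, both in the mevalonate pathway (adjusted p = 0.729 and 0.777). In 19 genes of insulin and IGF signalling, the growth factors Igf2 and Igf1 were higher and Irs2, an insulin receptor substrate, was lower at an unadjusted p under 0.05 (adjusted p = 0.793 each). Igf2 stood at 30.4 and 24.6 in GPx4+/- mice 1 and 3 and between 6.45 and 10.2 in all others. Jun and Btg2 were lower among 12 immediate early genes (adjusted p = 0.75 each), and of 18 core clock genes Per3 was higher and Nfil3 lower (adjusted p = 0.765 and 0.777). In 19 genes of the integrated stress response Pycr1, an enzyme of proline synthesis, was higher (adjusted p = 0.78). Among 19 endoplasmic reticulum chaperones, 15 genes of mitochondrial biogenesis and dynamics and 9 collagen-modifying enzymes 0 passed an unadjusted p of 0.05. A list of 81 genes was picked by the name pattern of cytosolic ribosomal proteins, which also takes in like-named relatives. In it 1 gene passed, the relative Rpl7l1, which was lower.

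**Figure D4:**
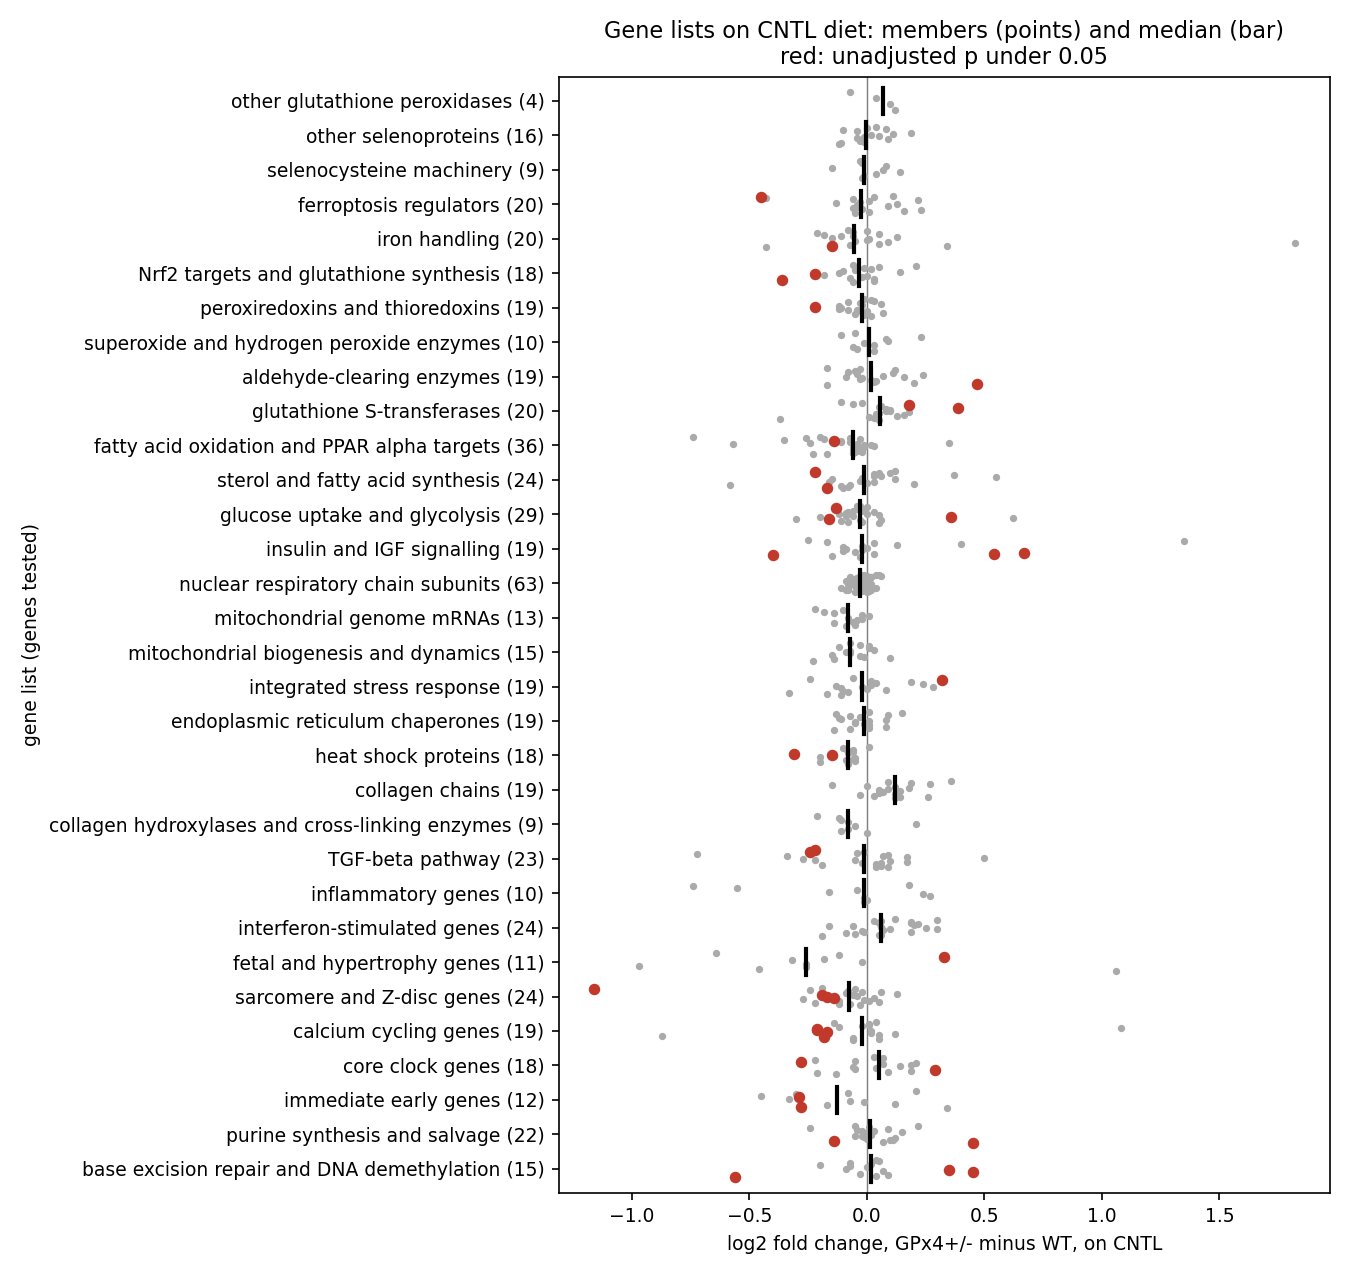
Log2 fold change between GPx4+/- and WT mice on CNTL (horizontal axis) for the tested members of 32 gene lists (rows, number of genes tested in parentheses), with the list median as a black bar and genes with an unadjusted p under 0.05 in red. Medians lie between -0.261 (fetal and hypertrophy genes) and 0.118 (collagen chains), which become 0.002 without GPx4+/- mouse 3 and 0.041 without WT mouse 5, and most members are near 0.

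Several genes outside these lists had the smallest p-values after those called, and none passed the adjustment over all genes. Mrtfa, the coactivator of serum response factor that responds to actin, stood at 1.63, 1.62, 2.07, 1.63 and 1.64 scaled TPM in WT and at 2.08, 2.3, 2.92, 2.61 and 2.95 in GPx4+/- mice, without overlap (log2 fold change 0.46 ± 0.0958, adjusted p = 0.152 in limma). Abra, a muscle protein that binds actin and promotes the entry of Mrtfa into the nucleus, was lower, at 15.7, 15.6, 14.5, 15.4 and 15.4 in WT and 10.2, 13.3, 8.87, 12.9 and 13.4 in GPx4+/- mice (log2 fold change -0.39 ± 0.108, adjusted p = 0.645). The 2 groups did not overlap for Abra either. Gm34302, a predicted coding gene of chromosome 3, stood at 153.3, 161.5, 122.2, 145.2 and 151.1 in WT and at 102.4, 97.5, 78.5, 103.1 and 116.0 in GPx4+/- mice (log2 fold change -0.56 ± 0.117, adjusted p = 0.152). Both Mrtfa and Gm34302 passed when mice were weighted by their quality (adjusted p = 0.0434 and 0.0458).

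Further genes were higher. Slc22a4, a carrier of the antioxidant ergothioneine, had 2.44 ± 0.222 and 3.22 ± 0.414 scaled TPM, Pla2r1, the phospholipase A2 receptor, 0.838 ± 0.157 and 1.43 ± 0.269, and Cers6, a ceramide synthase, 0.812 ± 0.162 and 1.51 ± 0.367 (adjusted p = 0.535 each). Cers6 passed the expression minimum through the GPx4+/- mice on CNTL, where it is high, so its difference was favoured by that minimum. Pla2r1 lay close to the same minimum, with means of 1.16 in WT and 0.956 in GPx4+/- mice on HFHS. Its difference on CNTL may have been favoured likewise. Rapgef6, an activator of the small GTPase Rap, had 4.09 ± 0.487 and 5.46 ± 0.766, and Exoc3l4, a relative of an exocyst subunit, had 1.45 ± 0.528 and 2.62 ± 0.685. Among genes at 10 scaled TPM or more whose groups did not overlap, the 8 with the largest upward changes were Gm17428, Hprt, Zfp445, Stab1, Scarb1, Sfswap, Smc1a and Tmem80. Zfp445, a zinc finger protein that protects imprints, went from 23.3 ± 3.22 to 30 ± 3.02, Stab1, a scavenger receptor of macrophages and some endothelia, from 15.3 ± 1.8 to 19.3 ± 2.18, and Scarb1, the receptor for high density lipoprotein, from 15.9 ± 1.4 to 19.2 ± 1.41. Smc1a, a cohesin subunit, went from 12.9 ± 0.721 to 15.1 ± 1.27. Gm17428 spans only the bases from 54976933 to 54977025 of chromosome 14, and its values of 53.8 to 112.7 in WT and 122.9 to 202.9 in GPx4+/- mice carry the uncertainty of so short a transcript.

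Other genes were lower. Dhx32, a helicase-like protein, stood at 31.2, 29.5, 30.5, 28.9 and 30.4 scaled TPM in WT and at 22, 26.7, 21.6, 27.9 and 25.9 in GPx4+/- mice, without overlap (log2 fold change -0.28 ± 0.0672, adjusted p = 0.535). Phka1, the muscle alpha subunit of phosphorylase kinase, which switches on glycogen breakdown, had 15.9 ± 0.883 and 12.9 ± 1.18, and Popdc3, a cAMP-binding membrane protein of striated muscle, 14.9 ± 0.75 and 12.3 ± 2.13, in both cases without overlap. Insig2, which holds sterol regulatory proteins in the endoplasmic reticulum, went from 35.1 ± 2.93 to 28.6 ± 2.63, and Foxk2, a forkhead repressor, from 11 ± 1.2 to 8.67 ± 0.906. Sh3bp5l and 0610009B22Rik completed the 10 lower genes with the smallest p-values, and the adjusted p of these 4 genes was 0.535.

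The comparison was repeated without the 3 mice that had high atrial or liver markers. Without WT mouse 3 and GPx4+/- mice 1 and 2, 6 genes were called, of which Gpx4, Tdg and Gm9855 were in common with the 6 above and Mrtfa, Insig2 and Gm8318 were added. Hprt (log2 fold change 0.45), Gpx4-ps2 (-1.17) and 1190007I07Rik (-0.50) were not called there, with folds about as large as in all 10 mice and 3 mice fewer. The part of cell makeup in the values of single genes and lists was not tested.

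The genotype difference was then set beside the same difference on the HFHS diet, where other mice formed both groups. Of the 6 genes called on CNTL, 5 were also called on HFHS. Gpx4 spanned 600.8 to 776.9 scaled TPM in WT and 323.8 to 382.4 in GPx4+/- mice on HFHS (log2 fold change -1.01), Gm9855 had a log2 fold change of 2.14, Tdg, by the same uncertain split, of -0.48, Hprt of 0.61 and 1190007I07Rik of -0.61. Gpx4-ps2, at -1.07, had an adjusted p of 0.0515 on HFHS. Gm4924, which just missed on CNTL, was called on HFHS at a log2 fold change of 1.19 (adjusted p = 0.0214). Gm9855, Gpx4-ps2 and Gm4924 had passed the expression minimum through the mice of 1 genotype on both diets, so their differences on HFHS were favoured by it as well. For none of these 7 genes did the difference between the diets pass, with adjusted p-values of 0.739 to 0.992 for the interaction in limma.

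Of the 748 genes with an unadjusted p under 0.05 on CNTL that were not called, 277 (37%) had the same sign on HFHS, against 44.3% of all genes tested. Of those that also had an unadjusted p under 0.05 on HFHS, 13 had the same sign and 38 the opposite sign. In the test of the difference itself, 0 genes passed an adjusted p of 0.05 and the smallest was 0.482, while 856 genes (7.14%) had an unadjusted p under 0.05. Mutyh was at -0.33 on HFHS against 0.45 on CNTL (interaction, adjusted p = 0.482), Mrtfa at -0.16 against 0.46 (adjusted p = 0.482), and Gm34302 at 0.06 against -0.56 (adjusted p = 0.651). Nqo1 was at 0.07 against -0.36 and Casq2 at 0.10 against -0.18. The median of the fatty acid oxidation list was 0.016 on HFHS and that of the heat shock list 0.021.

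**Figure D5:**
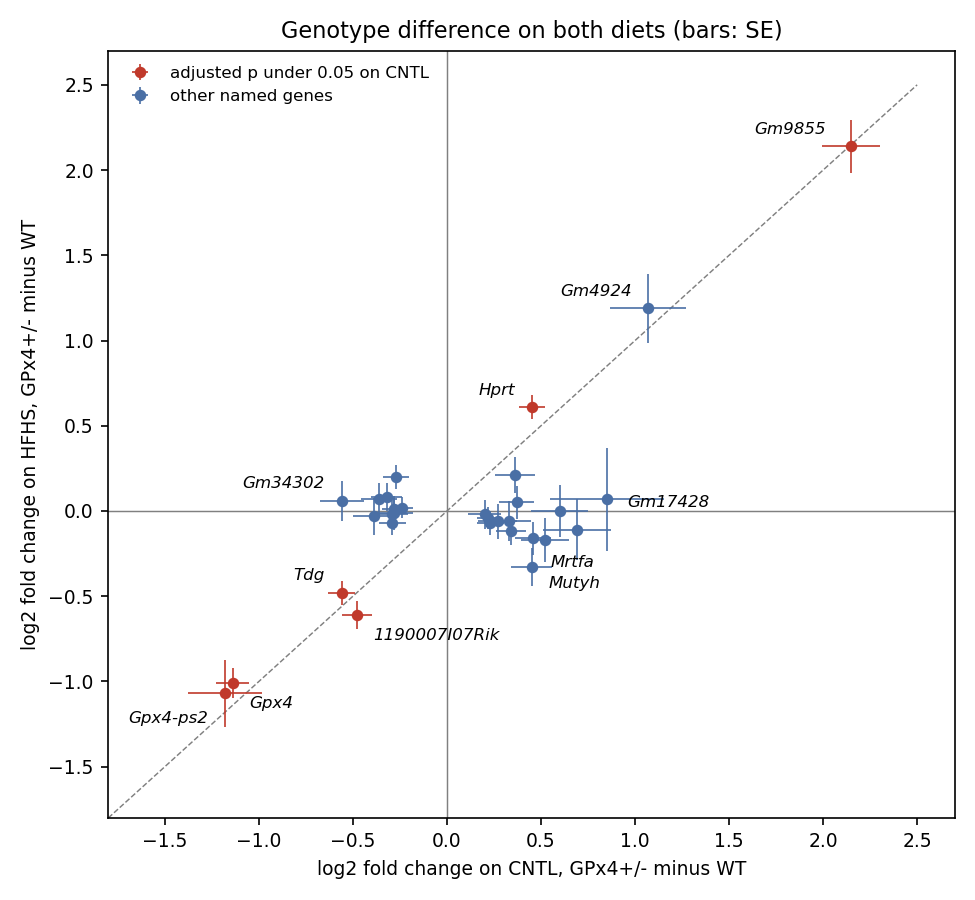
Log2 fold change between GPx4+/- and WT mice on CNTL (horizontal axis) and on HFHS (vertical axis) for 31 genes named by p or by non-overlapping groups on CNTL, with standard errors as bars and a dashed line where both are equal. The 6 called genes (red) and Gm4924 lie along the dashed line, whereas most of the others (blue) lie near 0 on HFHS. The genes were chosen by their values on CNTL, and 28 of the 31 were closer to 0 on HFHS.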

How the data were processed

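Genotype, diet and replicate follow the titles of the samples, and library columns were matched to mice by header name, since positions stated with the samples disagree with the headers. The authors deposited TPM per transcript. The submitters' processing notes name kallisto 0.43.1, sleuth 0.30.0 and GRCm38, whereas the methods text names STAR for alignment and DESeq2 for testing. TPM keeps no read depth, so no counting error is given. Of 119215 transcripts, 116772 matched GENCODE M21 and were summed to genes, and each library was divided by a median-ratio factor over 11879 genes (0.952 to 1.091 on CNTL).

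Because TPM are not counts, limma 3.58.1 (R 4.3.3, trend) was fitted to log2(scaled TPM + 0.5) of the 20 mice without carnosine as 4 groups. It covered the 11983 genes averaging 1 scaled TPM or more over the 25 mice. On simulated data with 200 genes changed by a log2 of 0.5, it recovered 69.5% of them with 6 false calls. At a log2 of 1 it recovered 92% with 12 false calls, and with no change there was 1 false call. Single values were compared by two-sided exact permutation. Copies were aligned with Biopython 1.88. Named genes were Gpx4, genes with an adjusted p under 0.05, the 10 higher and 10 lower with the smallest p, the 8 higher and 8 lower with the largest change among genes at 10 or more without overlap, and the 3 smallest p of each list; Gpx3, Hamp, Actn2, Slc8a1, Rpl7l1, Gm8318, Slc19a1 and Appl2 were named after their values were seen. Members and lists were chosen with earlier results of these data known, including Hprt and Tdg among the genes called earlier.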

Additional observations from a re-analysis of the deposited data

Results flagged for a closer look

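Each group of 5 mice was searched for a highest or lowest mouse whose gap to the nearest other mouse exceeded 0.71 of the group's range. Of 174 groups searched (71 genes and 16 marker sums, 2 groups each), 23 held such a mouse, where about 1 in 20 groups does so by chance.

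WT mouse 3 stood apart most often. Its marker sums were 4791 for atrial cardiomyocytes (other WT mice 167.7 to 195.9), 105.9 for endocardium and vein (27.4 to 34.9), 152.0 for valve and cartilage (16.6 to 43), 94.4 for adipocytes (72.2 to 77.7), 5.82 for mesothelium (2.33 to 3.04) and, on the low side, 290.2 for pericytes (341.6 to 351.3). Among genes it stood apart at 2.07 scaled TPM for Mrtfa, 2.39 for Exoc3l4, 14.5 for 0610009B22Rik, 51.5 for Nqo1, 14.5 for Abra and 178.1 for Selenop.

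GPx4+/- mouse 1 stood apart at 7622 for atrial markers (other GPx4+/- mice 182.4 to 1566), 108.7 for endocardium and vein (28.5 to 43.1), 13.2 for mesothelium (2.54 to 4.61) and 23.2 scaled TPM for Stab1. GPx4+/- mouse 2 stood apart at 1667 for hepatocyte markers (20.9 to 54.7) and at 1.65 for lymphocyte markers (2.84 to 3.27). GPx4+/- mouse 3 had 44.9 scaled TPM of Pfkl (54.2 to 56.4), and GPx4+/- mouse 4 had 21.3 of Gstt2 (14.9 to 16.4) and 20 of Tek (16.5 to 17.4). WT mouse 5 had 21 of 1190007I07Rik (16.6 to 17.3) and WT mouse 4 had 4.78 of Nfil3 (5.4 to 5.59). The part of cell makeup in these values was not tested.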

How the results depend on the processing

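Gpx4 passed in all 21 alternative fits with a log2 fold change between -1.20 and -1.07, Gm9855 in all 20 that tested it, Tdg in 20 of 21 and Hprt in 18 of 21. Gm9855 had passed the expression minimum through the GPx4+/- mice alone, so its difference was favoured by that minimum. The values of Tdg and Gm9855 rest on the uncertain split between them in every fit. Main counts were 6 called genes, with 356 higher and 398 lower at an unadjusted p under 0.05. Leaving out 1 mouse gave 4 to 7 called genes, 263 to 537 higher (537 without WT mouse 3) and 268 to 548 lower, and Gpx4 between -1.20 and -1.07. Array weights called 9 genes. Transcripts tested singly gave 3 called of 23693. No filter on low values gave 811 higher and 621 lower of 25881 genes, and a minimum of 5 gave 181 higher of 8098. TPM as deposited gave 374 higher and 95 lower, so that 79.7% were higher against 47.2% with scaling, and quantile normalization gave 39.4%. The cause was not tested. The genotype difference between diets had 0 called genes as reported, with TPM as deposited and with a minimum of 5.

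With the replicate number as a block (10 CNTL mice alone), 2 genes were called, against 4 in those mice without the block. Replicate numbers did not pair the mice, since the correlations of deviations between mice of the same number lay between -0.212 and 0.173 and no mouse matched its own number best. Of 1474 gene values under an alternative, 1438 kept direction and side of the threshold, 23 lost and 10 gained the call, and 3 changed sign. These were Gpx1 without GPx4+/- mouse 2 (-0.0036) and without WT mouse 3 and GPx4+/- mice 1 and 2 (-0.06), and Gpx7 without GPx4+/- mouse 3 (-0.01). Leaving out 1 mouse gave -0.0036 to 0.26 for Gpx1 and -0.01 to 0.09 for Gpx7. Of 944 list medians, 31 moved by more than the SD of the WT mice.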
